A study of Mus musculus with 3 samples.

Results

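Interferon response genes were examined in resting fibroblasts of 2 mouse strains and in a library labelled ESC. The set was a fixed list of 43 genes that are induced by interferon, sense viral nucleic acids or carry the interferon signal. Of these, 42 were matched by Ensembl identifier among the 29267 genes of the expression tables, and Mx2 was not analysed here. MEFs, the fibroblasts from which reprogramming starts, came from ICR mice and from OG2 mice, whose Oct4-GFP transgene marks pluripotent cells, and both were at passages 3 to 5. The ESC-labelled cells, described as naive, belonged to the line R1 and had reached passage 30. Each of the 3 RNA-seq libraries stands for 1 sample, and the labels name no interferon, infection or other treatment for any of them. The study did not state how many embryos each MEF culture came from.

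Type I interferons are secreted proteins that warn neighbouring cells of infection. They bind the receptor chains encoded by Ifnar1 and Ifnar2, and the kinases JAK1 and TYK2 then activate STAT factors. Together with IRF9, these form a complex that binds the interferon-stimulated response element (ISRE) in the promoters of target genes. Many targets are also expressed at a low level without infection, which is called tonic or resting expression, and fibroblasts are a classical cell type for its study. Pluripotent stem cells are known to respond weakly to interferon.

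The expected counts, which are the numbers of reads that RSEM assigned to each gene, summed to 5149312 (OG2 MEFs), 4590619 (ICR MEFs) and 1717838 (library labelled ESC). A share of 3 counts, taken as the smallest that can be shown, was 0.583, 0.654 and 1.75 counts per 1000000 counts (CPM) in the same order. All 10 fibroblast markers checked, among them Col1a1 with 53373 and 48730 counts, were present in both MEF samples. The library labelled ESC matched its label only in part. It had 71 counts of Pou5f1, 51.1 of Nanog and 32 of Sox2, but 0 of Zfp42, Esrrb, Dppa5a, Utf1 and Lin28a. Thus 5 of 10 pluripotency markers were at 0. Of the 6 with a count in any library, 4 were at least 1 unit of log2(CPM + 1) higher than in both MEF samples and 1, Klf2, was lower. It also held 1155 counts of Col1a1, although all 10 fibroblast markers were at least 1 unit of log2(CPM + 1) lower there than in both MEF samples. Of 6 epithelial markers, 4 were at least 1 unit of log2(CPM + 1) higher there than in both MEF samples. These were Krt14 at 414 counts, Krt8 at 177, Epcam at 11 and Cdh1 at only 2, while Krt5 was at 0. The 5 endothelial markers were mixed, with Pecam1 at 89.6 counts, Tek at 23, Emcn at 1 and Cdh5 and Kdr at 0. Of 10 leukocyte markers, 3 were higher, with Itgam at 88.1 counts, and 1 was lower. Its values are therefore given by its label, and the MEF samples are described first.

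In MEFs, most of the resting signal of these genes came from Ifitm3 and Ifitm2, which encode small membrane proteins that block the entry of viruses into cells. Ifitm3 reached 691 TPM, the RSEM value scaled by transcript length, in OG2 MEFs and 882 TPM in ICR MEFs, and Ifitm2 reached 655 and 710 TPM. These levels placed Ifitm3 at rank 184 and 135 among all genes of the 2 samples. Together both genes made up 69.7% of the summed TPM of the 42 genes in OG2 MEFs and 71.7% in ICR MEFs. All other members summed to 584 and 628 TPM. The median over the 42 genes was 8.14 TPM in OG2 MEFs and 6.44 TPM in ICR MEFs, beside 8.59 and 9.73 TPM over the 17810 genes counted in any of the libraries. A level above 10 TPM was found for 20 members in OG2 MEFs and 18 in ICR MEFs, which is 47.6% and 42.9% of them, and the same level was passed by 47.7% and 49.6% of all genes.

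After Ifitm2 and Ifitm3, the highest levels per length belonged to Bst2, the receptor genes, Irf3 and Irgm1. Bst2, whose product tethers budding virus to the cell surface, had 60.0 TPM in OG2 MEFs and 75.8 TPM in ICR MEFs. Ifnar2 had 57.3 and 53.9 TPM and Ifnar1 54.8 and 52.6 TPM. Irf3, the factor that is activated by the sensing of viral nucleic acids, had 47.4 and 53.4 TPM, and Irgm1, a GTPase of the defence against intracellular microbes, had 42.8 and 51.6 TPM. Ifnar1 and Irf3 changed places in this order between both samples, so neighbours in it cannot be ranked. Several other targets of interferon had few counts. Isg15, a ubiquitin-like modifier, had 26 counts in OG2 MEFs and 31 in ICR MEFs, or 15.98 and 21.86 TPM. Ifit1, which encodes a sensor of viral RNA caps, had 23 and 15 counts, or 3.30 and 2.51 TPM. Rsad2, the gene of the antiviral enzyme viperin, had 3 and 0 counts. Mx1, a GTPase that blocks influenza viruses, had 1 and 0. Oas3 had 0 in both. At least 3 counts were present for 38 members in OG2 MEFs and 37 in ICR MEFs.

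Interferon transcripts themselves were not detectable. Ifnb1, Ifna1, Ifna2, Ifna4, Ifna5, Ifnk, Ifne, Ifnl2, Ifnl3 and Ifng, the 10 ligand genes checked, had 0 counts in each of the 3 libraries, which allows up to 0.583 CPM in OG2 MEFs and 0.654 CPM in ICR MEFs. These limits and all intervals below reflect counting error alone and cover no spread between cultures. PCR copies of a molecule were also not marked and cannot be recognised, so the intervals can be too narrow.

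**Figure D1:**
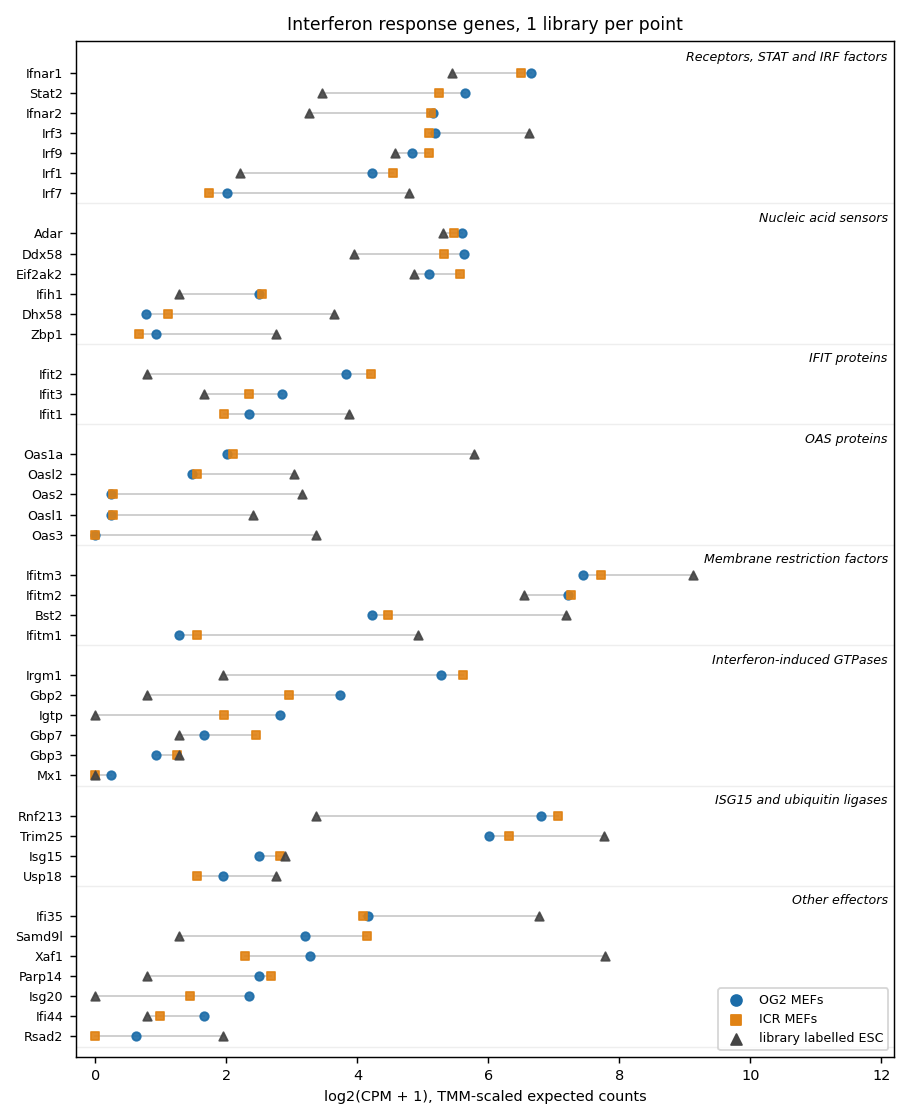
Expression of the 42 interferon response genes as log2(CPM + 1) on the horizontal axis, grouped by role, with 1 point for each library (circles, OG2 MEFs; squares, ICR MEFs; triangles, library labelled ESC). The MEF points lie within 0.99 of each other for every gene, while the triangles lie from 3.57 below to 5.00 above the MEF mean.

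Promoters were searched for the core of the ISRE. The members were listed as interferon response genes, so a share above that of all genes can follow from this choice. It is a description and no independent result. A window from 250 bases before to 50 bases after the transcription start was taken from RefSeq on GRCm38.p6 and matched 36 of the 42 genes. Mx1, Oas2, Usp18, Dhx58, Parp14 and Zbp1 were not matched. The letters GAAANNGAAA, on either strand, occurred in a window of 18 of the 36 genes. Over all 27025 genes with a window the share was 3.99%. The letters TTCNNNGAA of the GAS element, another site of interferon signalling, occurred in 13 of the 36, or 36.1%, beside 9.55% of all genes. Some genes have several windows and were counted once. A match occurred in 6 of 14 members higher in the library labelled ESC, 6 of 13 lower ones and 6 of 9 that were neither. The members furthest apart there on log2(CPM + 1), Xaf1 and Rnf213, held none. The promoters of 5 members that hold matches are shown. They are Ifitm3, highest in MEFs, the classical target Isg15, and members that were higher (Bst2, Oas1a) or lower (Irgm1) in the library labelled ESC. All 5 lie on the minus strand and are written 5′ to 3′ along it, with the matches to GAAANNGAAA in capitals. The windows are chr7:141010695-141010994 for Ifitm3, chr4:156200769-156201068 for Isg15, chr8:71537423-71537722 for Bst2, chr5:120907476-120907775 for Oas1a and chr11:48871371-48871670 for Irgm1.
Ifitm3: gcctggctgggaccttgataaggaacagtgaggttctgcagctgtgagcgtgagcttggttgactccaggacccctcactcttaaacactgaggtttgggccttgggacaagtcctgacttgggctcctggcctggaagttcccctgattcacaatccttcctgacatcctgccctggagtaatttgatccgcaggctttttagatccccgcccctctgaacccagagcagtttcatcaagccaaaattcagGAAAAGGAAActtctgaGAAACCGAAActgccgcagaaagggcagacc
Isg15: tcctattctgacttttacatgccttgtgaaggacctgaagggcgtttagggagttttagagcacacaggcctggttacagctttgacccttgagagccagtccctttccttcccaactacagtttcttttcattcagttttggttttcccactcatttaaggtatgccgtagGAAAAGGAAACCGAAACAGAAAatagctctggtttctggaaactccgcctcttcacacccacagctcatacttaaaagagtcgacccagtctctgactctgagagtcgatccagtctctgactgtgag
Bst2: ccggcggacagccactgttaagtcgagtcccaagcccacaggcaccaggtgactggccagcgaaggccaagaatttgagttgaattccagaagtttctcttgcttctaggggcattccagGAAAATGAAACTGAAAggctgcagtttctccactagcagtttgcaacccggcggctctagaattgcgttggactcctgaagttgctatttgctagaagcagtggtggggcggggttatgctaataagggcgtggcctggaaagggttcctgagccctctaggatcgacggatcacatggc
Oas1a: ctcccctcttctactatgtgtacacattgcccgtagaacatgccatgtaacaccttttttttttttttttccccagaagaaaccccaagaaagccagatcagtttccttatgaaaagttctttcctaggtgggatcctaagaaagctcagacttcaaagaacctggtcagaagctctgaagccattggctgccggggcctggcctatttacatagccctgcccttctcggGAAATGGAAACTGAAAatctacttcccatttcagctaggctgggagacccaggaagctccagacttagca
Irgm1: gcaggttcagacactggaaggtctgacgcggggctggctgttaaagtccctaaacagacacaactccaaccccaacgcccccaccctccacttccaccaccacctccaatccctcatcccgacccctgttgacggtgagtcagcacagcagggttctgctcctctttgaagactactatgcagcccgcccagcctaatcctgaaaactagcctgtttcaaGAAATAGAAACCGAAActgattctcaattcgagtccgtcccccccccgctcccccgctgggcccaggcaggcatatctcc
Isg15 held 3 overlapping matches, the first of which began 78 bases upstream of the start. Bst2, Oas1a and Irgm1 each held 2 overlapping matches, which began 130, 20 and 30 bases upstream. Ifitm3 held 2 separate matches downstream of the start, the first 2 bases and the second 19 bases after it. A match is a description of letters and was not tested for binding.

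The members lie partly in clusters, with positions here from GENCODE M21 on GRCm38. Ifit2, Ifit3 and Ifit1 lie side by side on chromosome 19 between 34550694 and 34650009. Gbp7, Gbp3 and Gbp2 lie on chromosome 3 between 142530342 and 142638008. Ifitm2, Ifitm1 and Ifitm3 lie on chromosome 7 between 140954837 and 141010770, and Irf7 lies on the same chromosome from 141262706 to 141266481. Oas2, Oas3 and Oas1a lie on chromosome 5 between 120730333 and 120907521, with Oasl2 and Oasl1 on the same chromosome between 114896936 and 114937915. Such related genes can share reads. The expected counts were more than 0.005 from a whole number for 8 members, namely Ifnar1, Ddx58, Eif2ak2, Ifit3, Oas1a, Oas3, Igtp and Xaf1, so part of their reads was divided with other genes and their values are less certain. Those of Ifitm1, Ifitm2 and Ifitm3 were whole in all libraries. Exons of 8 members overlap those of a gene on the opposite strand that was also counted, among them Irf3 with Bcl2l12 and Irf7 with Phrf1. Exons of 3 members overlap a counted gene on the same strand, which are Ifnar2 with Gm21970, Irf9 with Rnf31 and Igtp with Irgm2. Whether strand was used in counting is not given in the sources used here.

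The strains were compared at a threshold of 1 unit, which no member reached. Counts were scaled to CPM by TMM, with factors of 1.09 (OG2 MEFs), 1.13 (ICR MEFs) and 0.812 (library labelled ESC), and a gene was counted as apart at 1 unit of log2(CPM + 1), after the threshold of the study. None of the 42 members was at least 1 unit higher in OG2 MEFs and none was at least 1 unit lower, where 0.955% and 1.81% of the 17810 genes were. Xaf1, at a difference of 0.99, was closest to 1 unit, and it alone passed 1 unit with median-of-ratios size factors or, in a choice made after seeing the data, with TMM over both MEF samples alone. With a pseudocount of 0.1, 6 members were at least 1 unit higher in OG2 MEFs and 2 were lower. The median difference of OG2 minus ICR MEFs was -0.019 over the members and 0 over all genes, and the SD was 0.437 and 0.413. Pearson's r between both samples was 0.981 across the members, which are not independent replicates, and 0.987 across all genes. With 1 library for each strain there was no test of the strains, and a strain cannot be told apart from a culture.

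Counting error alone was smaller than the difference for some members. For this, the ratio of TMM-scaled counts in OG2 over ICR MEFs was given an exact 95% interval from the binomial distribution, which compares the 2 libraries and not the strains. The interval lay above 0 on the log2 scale for 6 of 41 members with a count in either sample, and below 0 for 6, which is 14.6% each. Over 16940 genes these shares were 9.38% and 9.72%. Genes with more counts have narrower intervals.

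The members on the OG2 side were Xaf1, Isg20, Igtp, Gbp2, Stat2 and Ddx58. Xaf1, whose product promotes cell death, had 49.2 counts in OG2 MEFs and 20.3 in ICR MEFs, a log2 ratio of 1.17 (interval 0.39 to 2.0). Isg20, an exonuclease that degrades viral RNA, had 23 and 9 counts, with 1.23 (0.06 to 2.53). Igtp and Gbp2 encode GTPases of the defence against intracellular microbes. They had 34.0 against 15.5 counts and 69 against 35 counts, with 1.06 (0.14 to 2.04) and 0.85 (0.25 to 1.49). The intervals of these 4 genes all include 1. Stat2 had 275 and 190 counts, with 0.41 (0.14 to 0.68), and the RNA sensor gene Ddx58, which encodes RIG-I, had 271 and 201, with 0.31 (0.04 to 0.58).

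The members on the ICR side were Samd9l, Eif2ak2, Irgm1, Trim25, Ifitm3 and Rnf213. Samd9l, an antiviral gene that restrains cell growth, had 46 counts in OG2 MEFs and 86 in ICR MEFs, a log2 ratio of -1.03 (interval -1.58 to -0.49). Eif2ak2, the gene of the kinase PKR that stops translation on double-stranded RNA, had 188 and 239 counts, with -0.47 (-0.75 to -0.19). Irgm1 had 212 and 247 counts, with -0.34 (-0.62 to -0.07). For Trim25, the ubiquitin ligase of RIG-I signalling, and Rnf213, a large ubiquitin ligase, the ratios were -0.30 (-0.51 to -0.09) and -0.26 (-0.42 to -0.10). Ifitm3 had 973 and 1086 counts, with -0.28 (-0.41 to -0.16). Members of the same group thus differed in direction, as Igtp and Gbp2 were higher in OG2 MEFs and Irgm1 was higher in ICR MEFs. The intervals of both receptor genes included 0, with 0.15 (-0.03 to 0.33) for Ifnar1 and 0.04 (-0.26 to 0.34) for Ifnar2.

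Markers of other cell types also differed between the MEF samples. The 10 markers of macrophages and other leukocytes summed to 443 counts in OG2 MEFs against 228 in ICR MEFs, and 2 of them, Adgre1 and Ptprc, were at least 1 unit higher in OG2 MEFs. Adgre1 had 34 counts in OG2 MEFs and 5 in ICR MEFs, Lyz2 had 237 and 132, Csf1r had 58.9 and 27.8, and Ptprc, which marks all leukocytes, had 11 and 0. The counting intervals of the other leukocyte markers included 0, and Itgam was lower in OG2 MEFs by TPM, at 1.64 against 2.73. The endothelial marker Emcn, with 10 and 36 counts, and the epithelial marker Krt8, with 6 and 19, were at least 1 unit lower in OG2 MEFs. The part of these cells in the strain differences was not tested. In bulk RNA, fewer cells of a type and less RNA per cell cannot be told apart.

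**Figure D2:**
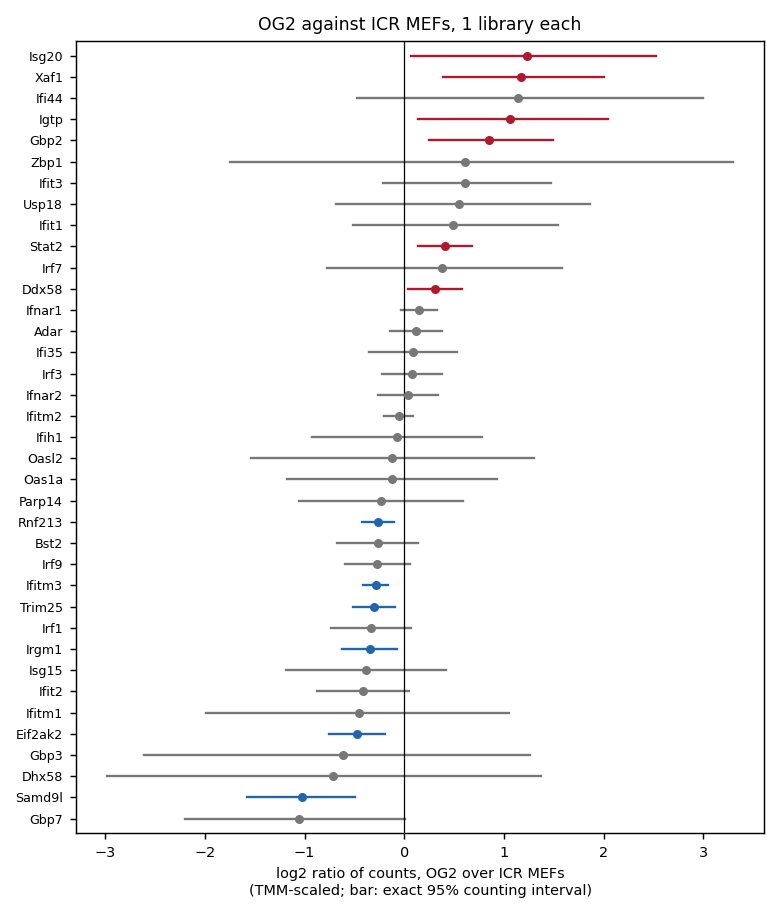
Log2 ratio of TMM-scaled counts in OG2 over ICR MEFs (horizontal axis) for the 37 members with at least 3 counts in both samples, with 1 library for each strain. Bars are exact 95% counting intervals. The 6 red intervals lie above 0 and the 6 blue ones below it, and the widest belong to genes with few counts, such as Zbp1 (-1.75 to 3.30).

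The library labelled ESC differed from both MEF samples in most members, in both directions. Of the 42 members, 17 were at least 1 unit of log2(CPM + 1) higher than each MEF sample, which is 40.5% of them beside 21.9% of all 17810 genes. Another 14 members, or 33.3%, were at least 1 unit lower, beside 25.9% of all genes, and 11 were neither. With TPM this balance turned, to 7 higher and 20 lower. The median difference over the members was -0.17, beside -0.13 over all genes, and the SD was 2.24 and 1.86. In the quasi-likelihood test of edgeR, with p-values adjusted after Benjamini and Hochberg over all tested genes, 36 of the 42 members passed the filter on low counts. Of these, 13 were called higher and 12 lower, or 36.1% and 33.3%, where 31.4% and 36.0% of 12663 genes were called. DESeq2 called 12 higher and 6 lower, and the edgeR calls of Irf1, Ddx58, Zbp1, Ifit1, Oasl2, Ifitm2, Gbp2, Igtp and Samd9l were lost with it, at adjusted p-values from 0.0512 to 0.251. Only the MEF pair, whose samples differ in strain, informs the spread in this test, which leaves 1 residual degree of freedom. The p-values here and below therefore measure no spread between replicate cultures of a strain or of the library labelled ESC. The edgeR shares of members were near those of all genes.

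The scaling of the library labelled ESC bears on these counts. TPM in place of CPM moved the median difference of 12726 genes with at least 10 counts by -1.31, median-of-ratios size factors moved it by 0.18, and no scaling beyond total counts by -0.42. Under each of these and a correction for GC content, 7 of the 17 higher members remained at least 1 unit above both MEF samples, which were Xaf1, Oas1a, Ifitm1, Oas3, Oas2, Bst2 and Ifi35. Of the 14 lower members, 12 remained at least 1 unit below both, all but Ifnar1 and Ifih1. Transcript length differed between these groups. Its median was 1644 bases in the higher members and 3154 bases in the lower ones, and it was 1830 and 3197 bases in all genes that were higher and lower in this library. The part of length in the differences was not tested. Neither was that of the epithelial, endothelial, leukocyte and fibroblast transcripts noted above.

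**Figure D3:**
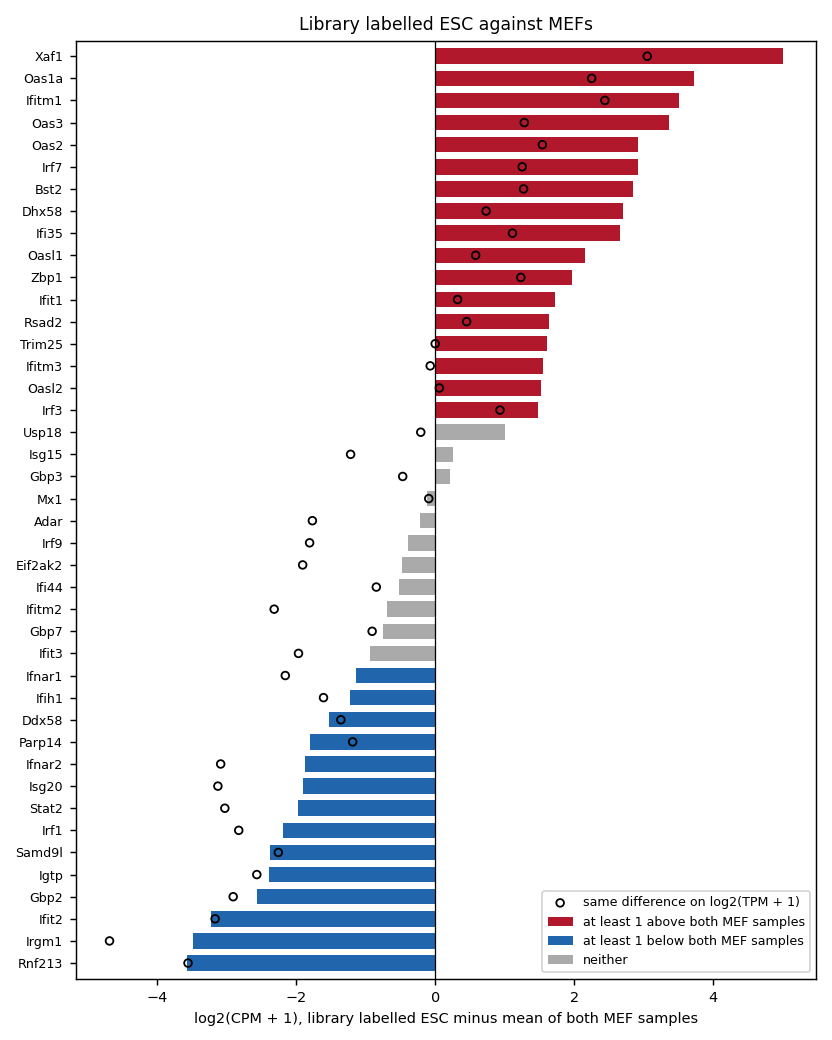
Difference of the library labelled ESC from the mean of both MEF samples for 42 members, as bars on log2(CPM + 1) and as open circles on log2(TPM + 1). Red and blue bars mark members at least 1 unit above and below both MEF samples, from Xaf1 (5.00) to Rnf213 (-3.57). The circles lie left of most bars, and for Ifitm3 and Trim25 they fall just below 0.

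The OAS genes were higher as a family. They encode enzymes that answer double-stranded RNA by making the signal that activates RNase L, and OAS-like proteins related to them. All 5 were at least 1 unit above both MEF samples, although Oasl1 and Oasl2 were not with TPM or with a pseudocount of 5. Only Oas1a and Oasl2 passed the filter on low counts of edgeR, so Oas2, Oas3 and Oasl1 were not tested. Oas1a had 17 and 17 counts in OG2 and ICR MEFs against 75.1 in the library labelled ESC, or 3.54, 4.12 and 21.9 TPM, and was 17.1 times as high per scaled count (exact 95% counting interval 11.3 to 26.4). This and later ratios of the library labelled ESC divide its scaled counts by those of both MEF samples summed. Their intervals leave out any difference between the MEF samples. The adjusted p of Oas1a was 5.11e-06 with edgeR. Oas2 had 1, 1 and 11 counts, a ratio of 42.6 (9.30 to 396). Oas3 had 0, 0 and 12.9 counts, so it was at least 33.6-fold higher when 3 counts are allowed over both MEF samples together. Unlike the intervals, this bound leaves out the counting error of the 12.9 counts. Oasl1 had 1, 1 and 6 counts, a ratio of 23.2 (4.16 to 235). Oasl2, with 10 counts in each library, was 3.87 times as high (1.62 to 8.67). Its adjusted p was 0.0325 from edgeR and 0.251 from DESeq2. With equal counts, this ratio rests on depth and scaling.

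Among the membrane restriction factors, Bst2 and Ifitm1 were higher. Bst2 had 99 and 109 counts in OG2 and ICR MEFs against 201 in the library labelled ESC, or 60.0, 75.8 and 164 TPM, a ratio of 7.49 (6.14 to 9.13) and an adjusted p of 1.19e-06 with edgeR. Ifitm1 had 8, 10 and 41 counts, or 7.44, 9.49 and 49.98 TPM, a ratio of 17.6 (9.91 to 32.6). Ifitm3 was higher on the CPM scale, with 973, 1086 and 781 counts and a log2 difference of 1.55, but the difference was -0.074 with TPM, where it had 691, 882 and 742. Ifitm2 had 828, 788 and 129 counts. It was called lower by edgeR with an adjusted p of 0.0257 but not by DESeq2 with 0.218, and its log2 difference of -0.69 did not reach 1 unit. Per length, Ifitm2 and Ifitm3 were close in MEFs, while in the library labelled ESC Ifitm2 had 135 TPM and Ifitm3 had 742.

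The interferon-induced GTPases were low in the library labelled ESC. All 6 together had 9 counts there before scaling for depth, beside 333 in OG2 MEFs and 328 in ICR MEFs. Most of the MEF counts were those of Irgm1. Irgm1 had 212 and 247 counts in OG2 and ICR MEFs against 4 in the library labelled ESC, a ratio of 0.0675 (0.0183 to 0.174) with an adjusted p of 8.3e-05 from edgeR. Gbp2 had 69, 35 and 1 counts, a ratio of 0.0745 (0.00187 to 0.424). Igtp had 34.0, 15.5 and 0 counts, so it was at least 2.11-fold lower when 3 counts are allowed in the library labelled ESC. Counting error of the MEF counts is not part of this bound. Gbp3 had 5, 7 and 2 counts, a ratio of 1.29 (0.14 to 5.8), so it was not lower once scaled. Gbp7 had 12, 23 and 2, a ratio of 0.443 (0.0516 to 1.72). Neither Gbp3 nor Gbp7 was 1 unit away from both MEF samples. Mx1 was at 1, 0 and 0 counts.

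Receptors and transcription factors were divided. Ifnar1 had 559 and 462 counts in OG2 and ICR MEFs against 59.2 in the library labelled ESC, a ratio of 0.448 (0.338 to 0.582). Ifnar2 had 196, 175 and 12, a ratio of 0.251 (0.128 to 0.443), and their adjusted p-values from edgeR were 0.00192 and 8.05e-04. Stat2 had 275, 190 and 14 counts, a ratio of 0.233 (0.127 to 0.395). Irf1, a factor induced by interferon gamma, had 100, 115 and 5, a ratio of 0.18 (0.0579 to 0.427). Each of these was below both MEF samples. Irf9, the partner of STAT2, had 156, 172 and 32 counts, a log2 difference of -0.39 that did not pass the test (adjusted p = 0.461, edgeR).

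Irf3 and Irf7, the factors that switch on interferon genes, were higher. Irf3 had 198 and 172 counts in OG2 and ICR MEFs against 136 in the library labelled ESC, a ratio of 2.85 (2.32 to 3.47). Irf7 had 17, 12 and 37 counts, a ratio of 9.88 (5.91 to 16.7). The adjusted p-values from edgeR were 3.23e-05 and 1.2e-04. With TPM neither gene was 1 unit above both MEF samples, and both share exon sequence with a gene on the opposite strand, as given above.

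The sensors of viral nucleic acids were divided too. Dhx58, which encodes the regulator LGP2, had 4, 6 and 16 counts in OG2 MEFs, ICR MEFs and the library labelled ESC, a ratio of 12.4 (5.29 to 30.6). Zbp1, a sensor of Z-form nucleic acids that triggers cell death, had 5, 3 and 8 counts, a ratio of 7.75 (2.53 to 23.7). Ddx58 was lower, with 271, 201 and 20.5 counts and a ratio of 0.328 (0.199 to 0.513), and its adjusted p was 0.00222 with edgeR. Ifih1, the gene of the RNA sensor MDA5, had 26, 25 and 2 counts, and its log2 difference of -1.23 did not pass the test (adjusted p = 0.152, edgeR). Eif2ak2 had 188, 239 and 39 counts, and Adar, which edits double-stranded RNA, had 267, 225 and 54. Their log2 differences of -0.48 and -0.22 did not pass the test, with adjusted p-values of 0.327 and 0.808 from edgeR. For Adar the counting interval of the ratio was 0.63 to 1.13.

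The IFIT genes, whose products bind foreign RNA, did not move together. Ifit1 had 23 and 15 counts in OG2 and ICR MEFs against 19 in the library labelled ESC, a ratio of 3.87 (2.11 to 6.89). Ifit2, in the same cluster on chromosome 19, had 74, 90 and 1 counts, a ratio of 0.0472 (0.00119 to 0.267). Ifit3 had 34.75, 20.97 and 3 counts, with a log2 difference of -0.94 and an adjusted p of 0.268 from edgeR. The adjusted p-values of Ifit1 and Ifit2 were 0.0064 and 0.00112 with the same tool. Per length, Ifit2 was the highest of the 3 in both MEF samples, with 8.40 and 10.3 TPM, and the lowest in the library labelled ESC, with 0.14 TPM.

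In the ISG15 and ubiquitin group, Trim25 was higher and Rnf213 was lower. Trim25 had 358 and 405 counts in OG2 and ICR MEFs against 301 in the library labelled ESC, a log2 difference of 1.60 that became -0.0022 with TPM. Rnf213 had 626, 688 and 13 counts, a ratio of 0.0766 (0.0407 to 0.132) with an adjusted p of 8.45e-06 from edgeR. Isg15 had 26, 31 and 9 counts, a ratio of 1.22 (0.532 to 2.49). Usp18, the protease that removes ISG15 and damps the receptor, had 16, 10 and 8, a ratio of 2.38 (0.933 to 5.42). These intervals of Isg15 and Usp18 include 1, and neither gene passed the test (adjusted p = 0.509 and 0.128, edgeR).

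Xaf1 had the largest difference of all members on log2(CPM + 1), though not as a ratio, with a pseudocount of 0.1 or with TPM. It had 49.2 and 20.3 counts in OG2 and ICR MEFs against 306 in the library labelled ESC, or 10.4, 6.67 and 76.8 TPM. The ratio to both MEF samples summed was 34.4 (26.4 to 45.3), with an adjusted p of 7.76e-07 from edgeR. This interval leaves out the difference between the MEF samples. Xaf1 had 8.7 scaled CPM in OG2 MEFs and 3.87 in ICR MEFs, beside 219 in the library labelled ESC. Ifi35, which binds the partner protein NMI, had 95, 82 and 152 counts, a ratio of 6.65 (5.32 to 8.31) and an adjusted p of 1.63e-06. Rsad2 had 3, 0 and 4 counts, a ratio of 10.3 (1.75 to 70.5) that rests on few reads. On the lower side, Samd9l had 46, 86 and 2 counts, a ratio of 0.117 (0.0141 to 0.432). Parp14, an ADP-ribosyltransferase, had 26, 28 and 1 counts, a ratio of 0.143 (0.00357 to 0.834). Isg20 had 23, 9 and 0 counts, at least 1.38-fold lower by the same kind of bound as Igtp. The adjusted p-values from edgeR were 0.0163 for Samd9l, 0.0516 for Parp14 and 0.0712 for Isg20, so the last 2 did not pass the test. Ifi44 had 12, 5 and 1 counts and was not 1 unit below both MEF samples.

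The rest of the pathway was compared in the same way, from lists of genes around these members. All genes give 21.9% higher and 25.9% lower by 1 unit, and 31.4% and 36.0% by edgeR. Of 9 other receptor, kinase and STAT genes, 6 were at least 1 unit lower in the library labelled ESC and none was higher. Jak1 had 1665 and 1443 counts in OG2 and ICR MEFs against 26 there, and Tyk2 had 138, 133 and 9. Of 9 inhibitors, 6 were lower and none was higher, with Socs1 at 34, 32 and 1 counts. Of 13 sensing adaptors and kinases, 8 were lower and none was higher, among them Mavs with 153, 168 and 11 counts, Tbk1 with 158, 156 and 5 and Tank with 153, 153 and 1. In these lists edgeR called 6 of 8, 5 of 8 and 7 of 11 tested genes lower, and it called 1 adaptor higher, Ikbke, with 69, 90 and 43 counts.

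Further interferon-induced genes lay on both sides. Of 28 such genes with a count, 7 were higher, 8 were lower and 13 were neither by 1 unit, shares near those of all genes. Of 19 tested, edgeR called 7 higher and 3 lower. The share called lower was below the 36.0% of all tested genes. The higher genes were Samhd1, which depletes nucleotides, with 571, 441 and 392 counts, and Parp12, Dtx3l, Sp100, Ifi27l2a, Cmpk2 and Ifi203. The lower ones included Irgm2, a GTPase next to Igtp, with 38.0, 30.5 and 0 counts, and Trim21, an antibody receptor of the cytosol, with 29, 28 and 1. The median difference was -0.34 in this list, -1.81 among receptors and kinases, -1.51 among inhibitors and -1.79 among adaptors, beside -0.13 for all genes. Between the strains, Herc6 was the only gene of these lists that was 1 unit apart, with 14 counts in OG2 MEFs and 36 in ICR MEFs, a log2(CPM + 1) difference of -1.19.

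**Figure D4:**
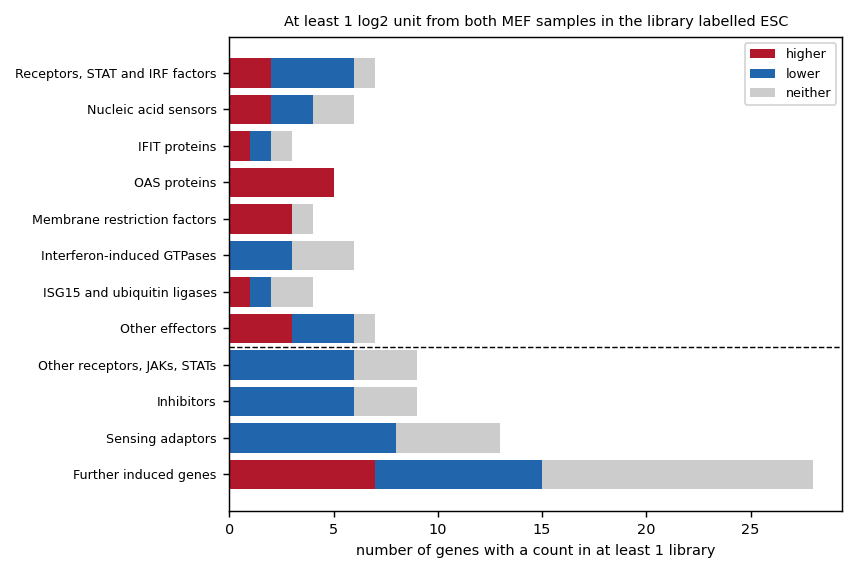
Number of genes at least 1 log2(CPM + 1) unit higher (red) or lower (blue) than both MEF samples in the library labelled ESC, or neither (grey), by role of the members (above the dashed line) and for other pathway lists (below it). All 5 OAS genes were higher, and none of the other receptor, inhibitor and adaptor genes was.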

How the data were processed

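RNA-seq of OG2 MEFs, ICR MEFs and ESC-labelled R1 cells was analysed, with 1 library each. By the methods of the study, reads were trimmed with TRIMMOMATIC, aligned with bowtie2 to Ensembl v67 transcripts and quantified with RSEM. The labels name Bowtie, RSEM and mm10, and versions are not given in the sources used here. The deposited tables hold expected counts, which are estimated reads per gene, and the GC normalization named in the study was assumed to come after them. The same deposited tables hold TPM, scaled by the authors' RSEM run to transcript length and a fixed sum, and FPKM, a deposited value that was not used because TPM orders genes the same way.

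After rounding to integers, TMM factors (edgeR 4.0.16, R 4.3.3) were applied and values were expressed as log2(CPM + 1) for the 17810 genes counted in any library. ESC was compared with both MEF samples by a difference of 1 log2 unit and by edgeR's quasi-likelihood test at an adjusted p of 0.05. Strains were compared without a test. Count ratios have exact binomial intervals at 95%, and those of the library labelled ESC are over both MEF samples summed. Depth was 5149312, 4590619 and 1717838 counts, which allows 3 counts to be 0.583, 0.654 and 1.75 CPM. Symbols, positions and GC content came from GENCODE M21, which named 98.3% of the genes, and promoters from RefSeq. Every member was accounted for, and values were given for members 1 log2 unit apart in a comparison, those highest by TPM, and the signalling and sensor genes. In other pathway lists, genes were counted, and only some of those 1 unit apart were named, with Ikbke added after its values were seen. Mb21d1, Gbp5 and Gbp6 of these lists were not analysed here. The members and lists were chosen with earlier results of these data known. Alternatives were pseudocounts (0.1 and 5), size factors by median of ratios, no scaling beyond total counts, TPM, a minimum of 10 counts, a GC-content correction over 20 bins, each MEF sample left out, DESeq2 1.42.0, and edgeR without its filter. TMM over both MEF samples alone was added after seeing the data. Python 3.11.15, numpy 2.4.6, pandas 2.3.3, scipy 1.17.1 and matplotlib 3.10.9 were used.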

Additional observations from a re-analysis of the deposited data

How the results depend on the processing

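The 17 members higher in the library labelled ESC became 7 with TPM and ran from 13 to 17 under the other scaling, filter and pseudocount choices. The 14 lower members became 9 with a pseudocount of 5, and 20 with TPM and 16 without scaling beyond total counts. Members called lower by edgeR, 12, became 6 with DESeq2, while those called higher, 13, became 12. The median difference of the library labelled ESC from MEFs, -0.17, became -0.40 without scaling beyond total counts, -0.88 with TPM and -0.48 with a minimum of 10 counts. With TPM the difference became -0.074 for Ifitm3 and -0.0022 for Trim25. Between the strains, no member was 1 unit apart, but with a pseudocount of 0.1, which widens differences of low counts, 6 were higher in OG2 MEFs and 2 were lower. With median-of-ratios size factors 1 was higher, and with TMM over both MEF samples alone, chosen after seeing the data, 1 was higher and 0 were lower. Apart from the pseudocount, the cause was not tested. Without each MEF sample in turn, the counts of higher members were 17 and 18 and those of lower members 15 and 15, and the median difference ran from -0.24 to -0.082. With a MEF sample left out, edgeR has no residual degree of freedom and was not run. No paired analysis was possible. The replicate numbers count samples within a group, and number 1 is OG2 MEFs in the MEF group and R1 cells in the ESC group. The depth of 1717838 counts limits the lower members, since 31 of the 42 members had at least 3 counts there.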
